A study of Rattus norvegicus with 26 samples.

Results

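The 36 genes described here build cholesterol and fatty acids in the cell, sense sterols or move them. They are 7 genes of the mevalonate pathway (*Acat2*, *Hmgcs1*, *Mvk*, *Pmvk*, *Mvd*, *Idi1* and *Fdps*), 11 genes from squalene to cholesterol (*Fdft1*, *Sqle*, *Lss*, *Cyp51*, *Tm7sf2*, *Sc4mol*, *Nsdhl*, *Hsd17b7*, *Ebp*, *Sc5dl* and *Dhcr7*), and 5 genes of the sterol regulatory element binding protein (SREBP) system (*Srebf1*, *Srebf2*, *Scap*, *Insig1* and *Insig2*). The others are 9 genes of fatty acid synthesis (*Acly*, *Acss2*, *Acaca*, *Fasn*, *Elovl5*, *Elovl6*, *Scd1*, *Fads1* and *Fads2*) and 4 genes of sterol transport and the liver X receptor (*Stard4*, *Abca1*, *Abcg1* and *Nr1h2*). A gene was taken when the array named a gene probe for it in any case, and the probe with the highest mean log2 level over the 26 arrays stood for it, so that all 36 genes of the 35287 gene names on the array were measured. *Sc4mol*, *Sc5dl* and *Scd1* are the array's names for the genes now called *Msmo1*, *Sc5d* and *Scd*. A probe named *Scd* was also on the array and was well above background on 26 arrays. It was counted among the other pathway genes, and its values are not reported here.

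Cholesterol is made from acetyl-CoA through mevalonate and squalene, and the same acetyl-CoA is carboxylated and lengthened into fatty acids. In low-sterol membranes the escort protein SCAP carries the SREBPs to the Golgi, where they are cut and released to switch on these genes, while the INSIG proteins hold the complex back when sterols are plentiful. Liver X receptors respond to oxysterols and raise exporters such as ABCA1 and ABCG1, so that synthesis and export are usually set against each other, and vascular smooth muscle cells (SMCs) are known to use both arms when they take up lipid.

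The cells were 2 female Fischer rat lines of multipotent adult progenitor cells (rMAPCs), bone marrow derived and *Oct4*-expressing: Cl19 (Cl-19 in the labels), from an animal of 3 weeks, and 3c3, of age E18. Each line is 1 clone. Undifferentiated cells (d0) were compared with cells kept for 2, 4 and 6 days (d2, d4 and d6) with TGF-ß and PDGF-bb in basal rMAPC medium, which the study's methods call serum free, with 3 arrays per line and day. A further 2 arrays held primary SMC RNA, which the labels describe as rat aortic and give with a supplier other than the one the methods name. There were no untreated cells at d2 to d6, so that the cytokines, the medium and the time in culture cannot be told apart. The study's supplement calls the 3 samples of a line and day biological replicates. It does not say whether they were separate cultures, and if they were not, the p-values measure only the spread between these samples.

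Each array gave a log2 level per gene after quantile normalization. Between 52.7% and 61.4% of gene probes were well above background on the Cl19 arrays, between 43.2% and 57.1% on the 3c3 arrays and between 43.6% and 44.5% on the primary SMC arrays. Each replicate of a line lay on 1 slide with the days in order of position, so that day and position cannot be told apart, and each of the 3 scan days held 1 line or the primary SMCs. The slide of 3c3 replicate 3 had a negative-control signal of 1.77 to 5.30, against 0.986 to 1.24 elsewhere. The array labelled Cl19 d2 replicate 1 lay nearer to the 3c3 d2 arrays (root mean square log2 differences of 0.382 to 0.538) than to the other Cl19 d2 arrays (0.917 and 0.876), and its level of *Pou5f1*, which encodes Oct4, was 8.77 against 4.58 and 4.59. Counts below are therefore also given without these arrays. Of the 5 smooth muscle contractile genes tested, 4 rose by d6 in each line. The other, *Myocd*, fell in 3c3 (log2 −1.20, limma adjusted p = 0.00402) and did not pass in Cl19 (log2 0.05, limma adjusted p = 0.92). *Myocd* was dim, with a signal that stood clear of background on 4 arrays in all. Its log2 level in primary SMCs was 5.1 above Cl19 d6 and 5.8 above 3c3 d6. The summed log2 level of all 5 genes went from 10.84 to 11.12 on d0 up to 15.90 to 16.16 on d6 in Cl19. In 3c3 the sum went from 10.49 to 10.71 up to 14.82 to 15.49. Visceral endoderm and hepatocyte genes, also found in cells that make and export lipid, moved alongside: 5 of the 5 tested rose in each line, and their summed level went from 5.20–5.46 to 13.32–14.70 in Cl19 and from 5.17–5.94 to 12.91–14.05 in 3c3, against 4.66–4.85 in primary SMCs, with *Alb* well above background on 0 arrays. Their part in the results below was not tested, and in bulk RNA fewer cells of a type and less RNA per cell cannot be told apart.

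In each line 6 of the 36 genes rose from d0 to d2 (16.7%, where 11.2% of all tested probes rose in Cl19 and 9.8% in 3c3). On d4 against d0, 3 were higher and 9 lower in Cl19 (8.3% and 25%, against 20.2% and 27.1% of all tested probes). In 3c3, 10 were higher and 3 lower on d4 (27.8% and 8.3%, against 14.8% and 22.2%). Without the slide of 3c3 replicate 3, 4 were higher and 1 lower there. The median d4 change was −0.24 in Cl19 and 0.13 in 3c3, beside −0.16 over all probes in both. From d2 to d6, 21 fell in each line (58.3%, where 18.1% and 15.5% of all tested probes fell). By d6 the fatty acid genes *Scd1*, *Acaca* and *Fasn* and the sterol carrier *Stard4* had fallen in both lines, while the exporter *Abcg1* had risen in both. Changes were tested with limma in 1 fit over all arrays, adjusted over 24442 probes with a threshold of 0.05. A change over d2, d4 and d6 passed for 25 of 36 genes in Cl19 and 27 in 3c3, where 54.3% and 50% of all tested probes passed, and 21 genes passed in both lines. The 5 genes that passed in neither line were *Hmgcs1*, *Fdps*, *Fdft1*, *Nsdhl* and *Srebf2*. With the slide as a block, which the shared slides allow, *Fdft1* passed in both lines (limma adjusted p = 0.0326 and 0.00684) and *Nsdhl* in 3c3 (limma adjusted p = 0.0379). Without the slide of 3c3 replicate 3, 12 genes passed in 3c3, and without Cl19 d2 replicate 1, 23 passed in Cl19.

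From d0 to d2 the median log2 change of the 36 genes was 0.23 in Cl19 and 0.50 in 3c3, beside −0.07 in both lines over all tested probes. In Cl19, 6 of 36 genes rose (16.7%, where 11.2% of all tested probes rose) and 4 fell (11.1%, against 11.5%). In 3c3, 6 rose (16.7%, against 9.8%) and 0 fell, against 9.27% of all probes, with 3 lower at an unadjusted p under 0.05 by limma. *Sqle*, *Sc5dl*, *Tm7sf2* and *Abcg1* rose in both lines. With the slide as a block 13 genes rose and 1 fell in 3c3. The block added *Dhcr7* (adjusted p = 0.032 by limma), *Insig1*, *Scap*, *Srebf2*, *Acss2*, *Fads2* and *Nr1h2* to those that rose (adjusted p = 0.0315 to 0.0486 by limma), and *Stard4* as the gene that fell (limma adjusted p = 0.0337). In Cl19 it added *Cyp51* and *Srebf1* as higher and *Ebp* as lower (limma adjusted p = 0.0392, 0.0337 and 0.0337). On the authors' table as deposited, 14 rose and 0 fell in 3c3. With a 75th-percentile scaling 6 rose and 3 fell there, and with another background correction 9 rose and 2 fell. Without the slide of 3c3 replicate 3, 2 rose in 3c3. In Cl19 leaving out replicate 1, 2 or 3 of d0, or replicate 2 or 3 of d2, left 5 or 6 genes called instead of 10, and without d2 replicate 1, 5 rose and 4 fell.

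Many genes that did not pass still stood higher on d2 on each slide. Within each of the 6 slides, which hold all 4 days of a replicate, 21 of the 36 genes were above d0 on d2 on all 6 slides, and 4 (*Acaca*, *Fasn*, *Stard4* and *Abca1*) were below on all 6. Every d2 array lay above every d0 array for 16 genes in Cl19 and 24 in 3c3, and below for 5 and 6. The shares of all tested probes that did the same are not given, so these counts do not set the 36 genes apart.

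Between d2 and d6 most of the genes fell. In each line 21 of 36 fell (58.3%, where 18.1% of all tested probes fell in Cl19 and 15.5% in 3c3) and 2 rose (5.6%, against 15.2% and 12%), and the median change was −0.98 in Cl19 and −0.88 in 3c3, beside −0.12 over all probes in both. Of these, 16 genes fell in both lines: *Acaca*, *Acat2*, *Acss2*, *Cyp51*, *Dhcr7*, *Ebp*, *Fads1*, *Fads2*, *Fasn*, *Hsd17b7*, *Idi1*, *Lss*, *Mvd*, *Scd1*, *Srebf1* and *Stard4*. Only *Abcg1* rose in both. On all 6 slides 26 genes were lower on d6 than on d2, and 14 were both above d0 on d2 and below d2 on d6. For these slide counts, too, no share over all tested probes is given. Without the slide of 3c3 replicate 3, 11 fell in 3c3, and without 3c3 d6 replicate 2 also 11. In Cl19 without d2 replicate 1, 17 fell, and without d6 replicate 2, 15 genes were called in all.

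From d0 to d6, 15 of 36 genes fell in Cl19 (41.7%, where 30.3% of all tested probes fell) and 2 rose (5.6%, against 22%). In 3c3, 11 fell (30.6%, against 28.6%) and 5 rose (13.9%, against 19.7%), so that the shares in 3c3 were near those of all probes. The median changes were −0.58 in Cl19 and −0.42 in 3c3, beside −0.20 and −0.21 over all probes. The genes that fell in both lines were *Acaca*, *Ebp*, *Fasn*, *Hsd17b7*, *Idi1*, *Lss*, *Pmvk*, *Scd1* and *Stard4*, and the genes that rose in both were *Abcg1* and *Nr1h2*. The 3c3 count rests on single arrays: 4 fell without the slide of replicate 3, 4 without d6 replicate 2, 7 without d0 replicate 2 or 3 or without d6 replicate 3, and 18 without d6 replicate 1. The split in 3c3 was 4 higher and 17 lower with the 75th-percentile scaling and 6 higher and 7 lower on the authors' table.

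**Figure D1:**
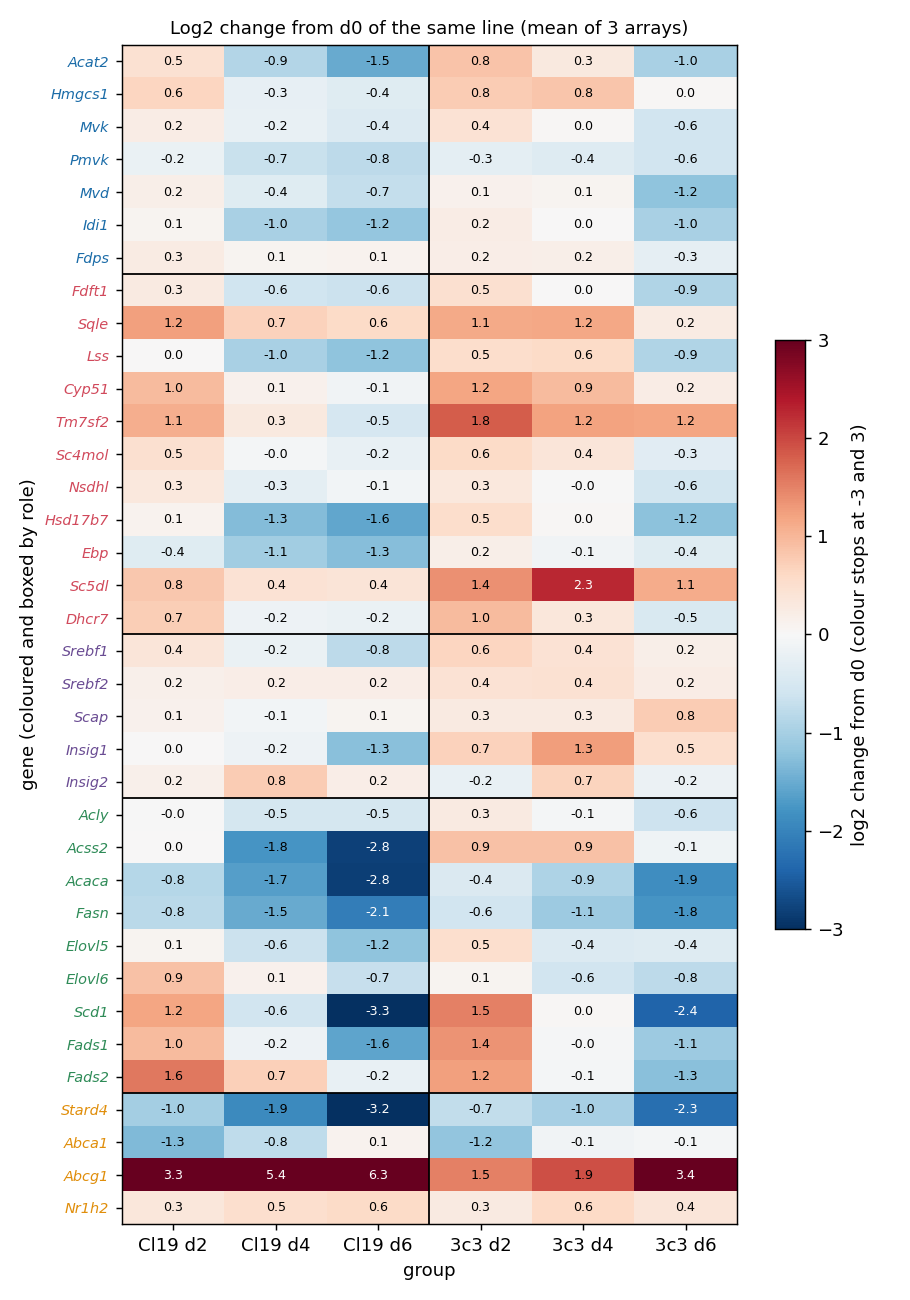
Log2 change from d0 on d2, d4 and d6 in Cl19 and 3c3 (columns) for each of the 36 genes (rows, ordered by role), as the difference of group means of 3 arrays, with red for higher and blue for lower and the color ending at −3 and 3. Most of the sterol synthesis rows are pale to red on d2, many of them pale in Cl19, and most are pale or blue on d6. The *Scd1*, *Acaca*, *Fasn* and *Stard4* rows are blue on d6 in both lines, and the *Abcg1* row is red throughout.

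The mevalonate pathway makes the isoprenoid units of sterols. Of its 7 genes 0 rose and 3 fell by d6 in each line (where 30.3% of all tested probes fell in Cl19 and 28.6% in 3c3), and 0 passed on d2. Here *Acat2*, the thiolase at the start of the pathway (probe at rn4 chr1:41939864-41939923), had levels in Cl19 of 13.87, 14.01 and 14.11 on d0, 14.37, 14.33 and 14.64 on d2, 12.91, 13.80 and 12.63 on d4, and 11.84, 11.91 and 13.69 on d6. The d6 arrays all lay below the d0 arrays, with replicate 3 close to them, and the fall was 2.85-fold (log2 −1.51 ± 0.44 (SE, n = 3 arrays a group), limma adjusted p = 0.00691). In 3c3 the *Acat2* levels were 13.63, 13.69 and 13.67 on d0, 14.67, 14.44 and 14.43 on d2, 14.29, 13.50 and 14.06 on d4, and 13.66, 11.65 and 12.74 on d6. The d2 arrays lay above all d0 arrays and the d6 arrays overlapped them, with a change by d6 of −0.98 ± 0.44 that did not pass (limma adjusted p = 0.074).

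*Idi1*, the isomerase that readies isopentenyl units for joining (rn4 chr17:72557224-72557283), stood at 11.64, 11.94 and 11.95 on d0 and at 9.99, 10.48 and 11.56 on d6 in Cl19. In 3c3 it stood at 11.62, 11.93 and 11.85 on d0 and at 11.65, 10.17 and 10.67 on d6. On d2 its levels were 11.90, 11.91 and 11.95 in Cl19 and 11.89, 12.18 and 12.02 in 3c3, and on d4 they were 10.41, 11.73 and 10.44 and then 12.08, 11.42 and 11.97. The fall by d6 was 2.24-fold in Cl19 and 1.96-fold in 3c3 (limma adjusted p = 0.0141 and 0.0401), and in 3c3 the d6 arrays overlapped those of d0. A second *Idi1* probe, nearly as bright, gave log2 changes of −0.92 and −0.78 that did not pass (limma adjusted p = 0.051 and 0.104). *Pmvk*, which adds the second phosphate to mevalonate, fell 1.71-fold in Cl19 and 1.5-fold in 3c3 (limma adjusted p = 0.00109 and 0.0109). *Mvd*, the decarboxylase after it, fell in 3c3 (2.30-fold, limma adjusted p = 0.00275), and in Cl19 its change was −0.71 (limma adjusted p = 0.055, or 0.0224 with the slide as a block). The remaining genes did not pass by d6: *Mvk*, the first kinase of the pathway, was 1.34-fold and 1.5-fold lower (in 3c3 a limma adjusted p of 0.0715, or 0.0108 with the block), *Hmgcs1*, the cytosolic HMG-CoA synthase, differed by 1.28-fold and 1.02-fold, and *Fdps*, farnesyl diphosphate synthase, by 1.07-fold and 1.21-fold. The dimmest of the *Fdps* probes went another way than the brightest, with −0.46 in Cl19 and 0.42 in 3c3 (limma adjusted p = 0.0065 and 0.0128), against 0.10 and −0.28.

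Of the 11 genes from squalene to cholesterol, 3 rose on d2 in Cl19 and 4 in 3c3 (where 11.2% and 9.8% of all tested probes rose), and 0 fell in either. By d6, 0 had risen and 3 had fallen in Cl19 and 2 had risen and 3 had fallen in 3c3, where 30.3% and 28.6% of all probes fell. From d2 to d6, 6 fell in Cl19 and 8 in 3c3 (against 18.1% and 15.5%). *Sqle*, the epoxidase that controls entry into the sterol ring steps and is named here after its values were seen, stood at 10.83, 10.97 and 10.99 on d0 and 11.76, 12.25 and 12.46 on d2 in Cl19. In 3c3 it stood at 10.50, 10.86 and 10.66 and then at 11.83, 11.81 and 11.76. The groups did not overlap, and the rise was 2.35-fold in Cl19 and 2.19-fold in 3c3 (limma adjusted p = 0.00704 and 0.0148). By d6 the Cl19 levels of *Sqle* were 10.88, 11.50 and 12.10, and those of 3c3 were 11.60, 10.13 and 11.03, so that the arrays of a line ran from about the d0 level to about the d2 level in Cl19, and from below d0 to near d2 in 3c3.

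*Tm7sf2*, a sterol C14 reductase (rn4 chr1:208700867-208700926), had Cl19 levels of 10.44, 10.55 and 10.65 on d0, 11.81, 11.55 and 11.55 on d2, 11.06, 11.05 and 10.41 on d4, and 9.41, 9.75 and 10.93 on d6. In 3c3 its levels were 9.91, 9.91 and 10.17 on d0, 12.19, 11.62 and 11.65 on d2, 11.42, 10.92 and 11.29 on d4, and 11.92, 10.53 and 11.08 on d6. The 3c3 arrays of d6 all stayed above d0, whereas those of Cl19 straddled it. The rise on d2 was 2.13-fold in Cl19 and 3.55-fold in 3c3 (limma adjusted p = 0.0216 and 5.33e-04), and the change by d6 was −0.52 ± 0.33 in Cl19 (adjusted p = 0.206) and 1.18 ± 0.33 in 3c3 (adjusted p = 0.00597 by limma). *Sc5dl*, the lathosterol desaturase, rose on d2 in both lines, by 1.75-fold in Cl19 and 2.59-fold in 3c3, and was still raised in 3c3 on d6 (2.17-fold, limma adjusted p = 3.81e-04), where its d4 arrays were the highest at 11.20, 11.34 and 11.39 against 8.92, 9.10 and 9.13 on d0. *Cyp51*, the lanosterol demethylase, rose on d2 in 3c3 (2.28-fold, limma adjusted p = 0.0197), and in Cl19 it was 1.94-fold higher with a limma adjusted p of 0.0512, or 0.0392 with the block.

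*Lss*, the cyclase that closes the sterol rings (rn4 chr20:12507929-12507988), stood in Cl19 at 10.73, 10.77 and 10.90 on d0, 10.92, 10.48 and 11.03 on d2, 9.75, 10.26 and 9.51 on d4, and 9.11, 9.25 and 10.45 on d6. In 3c3 it stood at 10.27, 10.43 and 10.60 on d0, 11.04, 10.85 and 10.97 on d2, 11.09, 10.77 and 11.14 on d4, and 10.45, 8.48 and 9.68 on d6. The d6 arrays of Cl19 all lay below d0, and those of 3c3 ran from the level of d0 to the lowest of the course. It fell 2.29-fold in Cl19 (limma adjusted p = 0.00977) and 1.86-fold in 3c3, where the limma adjusted p was 0.05 after rounding and just inside the threshold.

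*Hsd17b7*, a ketosteroid reductase of the same route (rn4 chr13:85776587-85776646), stood in Cl19 at 7.64, 7.43 and 7.87 on d0, 8.03, 7.40 and 7.83 on d2, 6.19, 6.68 and 6.15 on d4, and 5.71, 5.37 and 7.19 on d6. In 3c3 it stood at 7.33, 7.53 and 7.76 on d0, 7.99, 7.99 and 8.21 on d2, 7.84, 7.15 and 7.77 on d4, and 6.98, 5.28 and 6.64 on d6. In both lines every d6 array was below every d0 array, with a fall of 2.93-fold in Cl19 and 2.36-fold in 3c3 (limma adjusted p = 0.00269 and 0.0144). *Ebp*, the sterol isomerase (rn4 chrX:26337475-26337534), went in Cl19 from 12.53, 12.71 and 12.67 on d0 through 12.29, 12.25 and 12.28 on d2 and 11.67, 11.78 and 11.31 on d4 to 11.21, 11.41 and 11.43 on d6. In 3c3 it went from 12.15, 12.22 and 11.98 through 12.39, 12.36 and 12.14 and 12.19, 11.79 and 12.03 to 11.95, 11.75 and 11.54. Its replicates lay close together, and it fell 2.44-fold in Cl19 and 1.29-fold in 3c3 (limma adjusted p = 3.47e-07 and 0.0386). The last steps and the others of this group did not pass by d6 in either line: *Dhcr7*, the final reductase, was 1.15-fold and 1.37-fold lower, *Sc4mol*, the methyl oxidase, 1.17-fold and 1.27-fold lower, and *Nsdhl*, the decarboxylase that follows it, 1.05-fold and 1.48-fold different. *Fdft1*, squalene synthase, was dim at log2 levels of 3.39 to 6.86, and replicate 2 was its highest array on each day in both lines, and without the block its change passed at no day. With the slide as a block its change in 3c3 passed by d6 (log2 −0.90 ± 0.31, limma adjusted p = 0.0193), and the change from d2 to d6 passed in both lines (limma adjusted p = 0.0239 and 0.00235).

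The 4 genes whose promoters follow were chosen to show how *Lss* and *Hsd17b7*, which fell in both lines, look beside *Insig1* and *Acss2*, which fell in Cl19 and not in 3c3. The windows are the 250 bases before the start of each gene in RefSeq on the assembly GRCr8, read on the strand of the gene: *Lss* at chr20:12118231-12118480 (minus), *Hsd17b7* at chr13:84722755-84723004 (minus), *Insig1* at chr4:8057770-8058019 (minus) and *Acss2* at chr3:164464453-164464702 (plus). Capitals mark the letters ATTGG, which are CCAAT on the other strand.
Lss: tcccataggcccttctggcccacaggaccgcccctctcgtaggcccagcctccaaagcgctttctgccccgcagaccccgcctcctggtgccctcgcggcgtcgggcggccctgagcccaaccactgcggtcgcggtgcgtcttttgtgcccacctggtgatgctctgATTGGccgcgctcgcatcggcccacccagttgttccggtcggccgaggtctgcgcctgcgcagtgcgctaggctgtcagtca
Hsd17b7: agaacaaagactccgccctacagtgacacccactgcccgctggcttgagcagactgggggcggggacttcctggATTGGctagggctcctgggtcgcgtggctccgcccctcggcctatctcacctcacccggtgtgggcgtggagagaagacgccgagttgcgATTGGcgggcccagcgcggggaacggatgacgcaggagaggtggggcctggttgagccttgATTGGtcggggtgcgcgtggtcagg
Insig1: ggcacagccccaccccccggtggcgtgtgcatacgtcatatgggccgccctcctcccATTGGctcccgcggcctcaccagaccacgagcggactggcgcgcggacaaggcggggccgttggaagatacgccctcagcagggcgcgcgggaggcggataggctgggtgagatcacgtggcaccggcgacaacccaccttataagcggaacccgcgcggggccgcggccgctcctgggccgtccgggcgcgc
Acss2: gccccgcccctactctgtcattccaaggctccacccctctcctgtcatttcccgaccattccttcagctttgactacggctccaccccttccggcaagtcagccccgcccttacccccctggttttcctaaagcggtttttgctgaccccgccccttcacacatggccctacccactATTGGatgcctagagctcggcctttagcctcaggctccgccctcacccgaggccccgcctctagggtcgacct
*Hsd17b7* held 3 CCAAT boxes in its window and each of the other genes 1. A promoter window was found for 28 of the 36 genes, and 4 motifs were searched on both strands in the window from 250 bases before to 50 after the start. CCAAT was in 20 of the 28 (71.4%, against 37.5% of 33469 promoters), the GC box GGGCGG in 22 (78.6%, against 33.1%), and the E-box CACGTG in 5 (17.9%, against 6.42%). The sterol element letters TCACNCCAC were in 0 of the 28 windows and in 1.12% of all promoters. Neighboring motifs can share end letters, as ATTGG and GGGCGG share GG, and each was counted on its own. *Pmvk*, *Fdft1*, *Sqle*, *Acaca*, *Fasn*, *Elovl6*, *Stard4* and *Abcg1* were without a window.

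The SREBP system sets the pace of both syntheses, and it held 3 of the 7 genes whose change by d6 differed between the lines. Of its 5 genes 2 fell by d6 in Cl19 (*Insig1* and *Srebf1*, where 30.3% of all probes fell) and 1 rose in 3c3 (*Scap*, where 19.7% rose). *Insig1*, the retention protein that is itself a target of the SREBPs (rn4 chr4:2577508-2577567), had Cl19 levels of 12.75, 13.22 and 13.01 on d0, 13.02, 13.04 and 12.94 on d2, 13.01, 12.91 and 12.59 on d4, and 11.05, 11.85 and 12.29 on d6. In 3c3 its levels were 12.58, 12.82 and 12.56 on d0, 13.22, 13.58 and 13.22 on d2, 13.32, 14.49 and 13.92 on d4, and 13.16, 13.21 and 13.08 on d6. The Cl19 arrays of d6 lay below all those of d0, while the 3c3 arrays of d2, d4 and d6 lay above them. The change by d6 was −1.26 ± 0.26 in Cl19 (limma adjusted p = 4.56e-04) and 0.50 ± 0.26 in 3c3 (limma adjusted p = 0.129), and all 4 probes for *Insig1* were lower in Cl19 and higher in 3c3. Only the second brightest, nearly as bright as the first, passed in 3c3 (log2 0.76, limma adjusted p = 0.0343).

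*Srebf1*, the SREBP most tied to fatty acid synthesis (rn4 chr10:46463470-46463986), went in Cl19 from 10.67, 10.48 and 10.39 on d0 through 10.99, 10.73 and 10.94 on d2 and 10.59, 10.15 and 10.23 on d4 to 9.84, 9.43 and 9.96 on d6. In 3c3 it went from 10.30, 10.24 and 10.44 through 11.15, 10.74 and 10.99 and 10.64, 10.82 and 10.81 to 10.43, 10.34 and 10.76. Its d6 arrays were below d0 in Cl19 and about at d0 in 3c3, with changes of −0.77 (limma adjusted p = 4.53e-04) and 0.18 (limma adjusted p = 0.37). A dimmer *Srebf1* probe gave −1.26 in Cl19 and −0.34 in 3c3, and neither passed (limma adjusted p = 0.214 and 0.768). *Scap*, the escort, was at 12.96, 12.77 and 12.83 on d0 and 12.94, 12.91 and 12.93 on d6 in Cl19, and at 12.92, 12.69 and 12.79 on d0 and 13.40, 13.63 and 13.63 on d6 in 3c3. Between these days it stayed from 12.67 to 13.12 in Cl19 and from 12.91 to 13.19 in 3c3. Its rise in 3c3 was 1.69-fold (limma adjusted p = 1.71e-05), and its Cl19 change of 0.07 (limma adjusted p = 0.61) became −0.29 with the 75th-percentile scaling.

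*Insig2*, the isoform that does not depend on the SREBPs, was highest on d4 in both lines, at 9.21, 8.83 and 9.36 in Cl19 and 8.82, 9.32 and 9.36 in 3c3. Its levels on d0 were 8.35, 8.13 and 8.61 and 8.45, 8.40 and 8.63, on d2 8.51, 8.19 and 8.85 and 8.32, 8.17 and 8.35, and on d6 8.42, 8.74 and 8.55 and 8.40, 8.15 and 8.38. Against d0 the d6 level differed by 0.21 in Cl19 and by −0.18 in 3c3, and neither passed (limma adjusted p = 0.365 and 0.444), although every 3c3 array of d6 lay below every one of d0. *Srebf2*, the SREBP most tied to cholesterol synthesis, passed over time in neither line and stayed between 6.75 and 7.52 on all arrays.

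**Figure D2:**
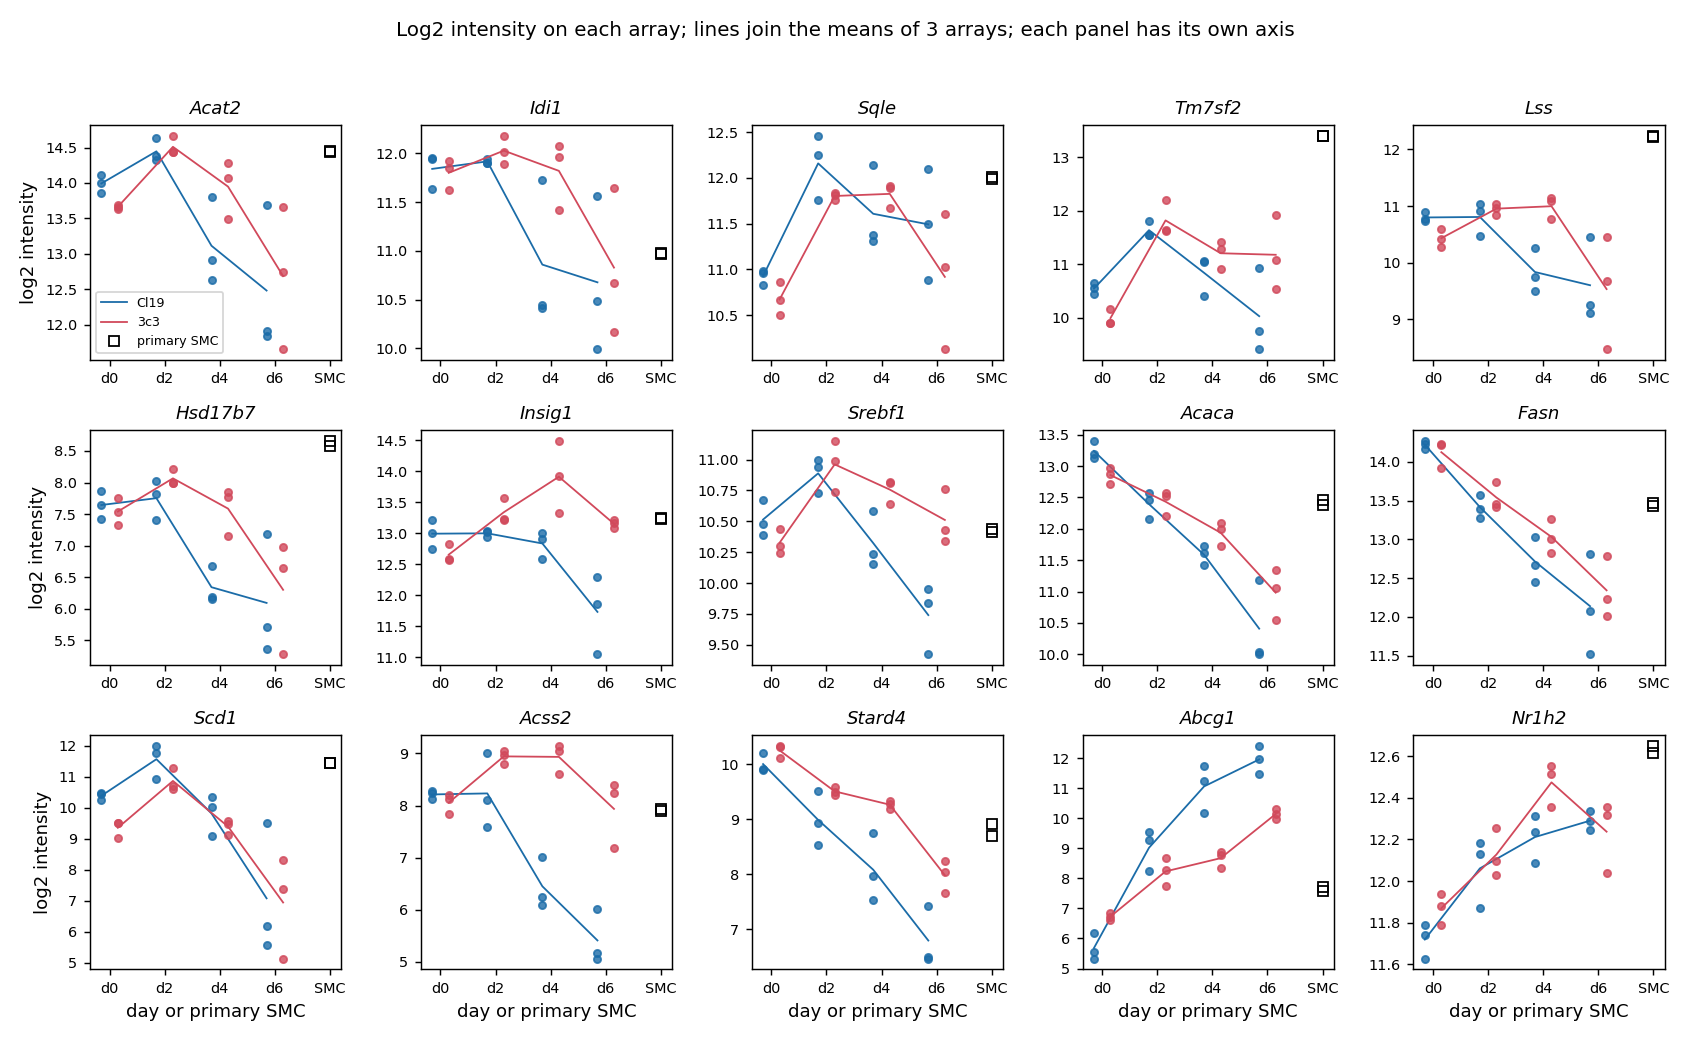
Log2 level on every array (points) (circles, or squares for primary SMCs) with lines joining the group means over d0, d2, d4 and d6 in Cl19 and 3c3 and in primary SMCs, for selected genes of each role. *Acaca*, *Stard4* and *Scd1* go down towards d6, *Abcg1* goes up, and on d6 the 3 arrays of a line lie far apart for the synthesis genes and closer together for *Abcg1*. Each panel has its own axis.

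Fatty acid synthesis held the gene with the largest fall by d6 in each line among the 36, *Scd1*. Of its 9 genes 6 fell in Cl19 and 4 in 3c3 (where 30.3% and 28.6% of all tested probes fell) and 0 rose. From d2 to d6, 8 fell in Cl19 and 7 in 3c3 (against 18.1% and 15.5%). *Acaca*, the carboxylase that commits acetyl-CoA to fatty acids (rn4 chr10:72678945-72679004), went in Cl19 from 13.19, 13.13 and 13.40 on d0 through 12.46, 12.15 and 12.57 on d2 and 11.72, 11.62 and 11.42 on d4 to 10.03, 10.01 and 11.19 on d6. In 3c3 it went from 12.87, 12.72 and 12.97 through 12.57, 12.20 and 12.53 and 12.09, 11.73 and 11.997 to 11.34, 10.55 and 11.06. The levels stepped down at each day in both lines, with a fall of 7.12-fold in Cl19 (log2 −2.83 ± 0.25, limma adjusted p = 1.72e-08) and 3.67-fold in 3c3 (log2 −1.87 ± 0.25, limma adjusted p = 5.16e-06).

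*Fasn*, the fatty acid synthase whose probe is not placed on rn4, followed the same course, from 14.27, 14.17 and 14.23 on d0 through 13.58, 13.28 and 13.39 on d2 and 12.67, 13.03 and 12.45 on d4 to 11.52, 12.08 and 12.81 on d6 in Cl19. In 3c3 its levels were 14.23, 13.92 and 14.22, then 13.74, 13.42 and 13.46, then 13.27, 12.82 and 13.01, and then 12.79, 12.02 and 12.23. Neither line showed an early rise, no d6 array reached a d0 array, and the fall was 4.24-fold and 3.44-fold (limma adjusted p = 8.80e-07 and 9.12e-06). On d2 both *Acaca* (1.80-fold) and *Fasn* (1.75-fold) had already fallen in Cl19, with limma adjusted p of 0.018 and 0.0239.

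*Scd1*, the desaturase that makes oleate (rn4 chr1:249459057-249459116), had the widest range of levels in this group. Its Cl19 levels were 10.24, 10.44 and 10.48 on d0, 10.92, 11.78 and 12.01 on d2, 10.35, 10.01 and 9.09 on d4, and 5.55, 6.18 and 9.50 on d6. In 3c3 they were 9.04, 9.51 and 9.51 on d0, 11.27, 10.62 and 10.71 on d2, 9.58, 9.13 and 9.48 on d4, and 8.32, 5.13 and 7.39 on d6. All d2 arrays were above and all d6 arrays below those of d0 in both lines, and the fall by d6 was 9.91-fold in Cl19 and 5.32-fold in 3c3 (limma adjusted p = 0.00107 and 0.0129). The d2 change of 1.18 in Cl19 and 1.51 in 3c3 did not pass, with a standard error of 0.76. Without the slide of 3c3 replicate 3 the *Scd1* change in 3c3 was −2.55 and no longer passed.

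*Acss2*, which makes cytosolic acetyl-CoA from acetate (rn4 chr3:146050508-146050647), had Cl19 levels of 8.29, 8.12 and 8.24 on d0, 9.01, 7.59 and 8.10 on d2, 7.01, 6.24 and 6.10 on d4, and 5.06, 5.16 and 6.01 on d6. In 3c3 they were 8.20, 7.84 and 8.13 on d0, 9.05, 8.81 and 8.98 on d2, 9.04, 8.61 and 9.15 on d4, and 8.39, 7.18 and 8.24 on d6. In Cl19 the d4 and d6 arrays were well below d0, whereas in 3c3 the d2 and d4 arrays were above it. By d6 it had fallen 6.98-fold in Cl19 (limma adjusted p = 1.20e-06), and in 3c3 the change was −0.12 (limma adjusted p = 0.804). The desaturases *Fads1* and *Fads2*, which make polyunsaturated fatty acids, stood above d0 on all d2 arrays of both lines. *Fads1* then fell in Cl19 by d6 (3.02-fold, limma adjusted p = 0.0162) and *Fads2* in 3c3 (2.39-fold, limma adjusted p = 0.0294). *Elovl5*, an elongase of polyunsaturated chains whose probe was dim at log2 levels of 2.57 to 4.94, fell in Cl19 (2.30-fold) and did not pass in 3c3. *Acly*, which makes acetyl-CoA from citrate, was 1.43-fold and 1.54-fold lower by d6 and *Elovl6*, the elongase of saturated chains, 1.60-fold and 1.72-fold lower, and neither passed. With the slide as a block *Acly* passed in both lines (limma adjusted p = 0.0426 and 0.0184).

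Among the genes of sterol movement the directions were opposed. *Abcg1*, an exporter of cholesterol to HDL (rn4 chr20:9459359-9459418), went in Cl19 from 6.18, 5.54 and 5.32 on d0 through 8.25, 9.53 and 9.29 on d2 and 10.19, 11.75 and 11.24 on d4 to 11.99, 12.42 and 11.47 on d6. In 3c3 it went from 6.72, 6.62 and 6.85 through 8.66, 7.76 and 8.28 and 8.79, 8.36 and 8.88 to 10.31, 10.15 and 9.97. No treated array overlapped d0 in either line, and the rise by d6 was 77.6-fold in Cl19 (log2 6.28 ± 0.37, limma adjusted p = 1.10e-10) and 10.7-fold in 3c3 (log2 3.41 ± 0.37, limma adjusted p = 4.09e-07). *Nr1h2*, the liver X receptor beta (rn4 chr1:95027486-95027545), went from 11.79, 11.63 and 11.74 on d0 through 12.18, 11.87 and 12.13 and 12.31, 12.09 and 12.23 to 12.34, 12.24 and 12.29 on d6 in Cl19, and from 11.88, 11.79 and 11.94 through 12.10, 12.03 and 12.26 and 12.35, 12.55 and 12.52 to 12.04, 12.32 and 12.36 in 3c3. Its rise was small, 1.49-fold and 1.29-fold (limma adjusted p = 4.30e-04 and 0.0149), and with the 75th-percentile scaling the changes were 0.23 and 0.08 and did not pass.

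*Stard4*, a carrier that moves cholesterol between membranes (rn4 chr18:25645901-25648404), went in Cl19 from 9.91, 9.89 and 10.20 on d0 through 9.51, 8.53 and 8.93 on d2 and 8.75, 7.53 and 7.98 on d4 to 6.50, 6.47 and 7.43 on d6. In 3c3 it went from 10.34, 10.11 and 10.30 through 9.49, 9.44 and 9.59 and 9.19, 9.33 and 9.28 to 8.25, 7.67 and 8.04. It fell 9.21-fold in Cl19 and 4.81-fold in 3c3 (limma adjusted p = 1.94e-08 and 2.61e-06), with every treated array below every d0 array of its line. *Abca1*, the exporter to lipid-free apolipoproteins, dipped on d2 and came back: its Cl19 levels were 8.54, 8.20 and 8.29 on d0, 7.48, 6.71 and 6.87 on d2 and 8.12, 8.85 and 8.36 on d6. In 3c3 they were 8.58, 8.20 and 8.44, then 7.54, 6.80 and 7.32, and then 7.59, 9.04 and 8.43. The fall on d2 passed in Cl19 (2.5-fold, limma adjusted p = 0.03) and was 2.27-fold in 3c3 (limma adjusted p = 0.0589), and by d6 the changes were 0.10 and −0.05.

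The replicates of d6 differed more in these genes than in others. Between Cl19 d6 replicates 1 and 3 the median absolute log2 difference over the 36 genes was 1.07, beside 0.257 over all probes well above background on every array, and between 3c3 d6 replicates 1 and 2 it was 1.06 beside 0.358. On d0 the same difference over the 36 genes was 0.138 to 0.211. The array of Cl19 d6 replicate 3 was the highest of its group for 29 of 36 genes. The array of 3c3 d6 replicate 1 was the highest for 29 and that of replicate 2 the lowest for 27. No share over all tested probes is given for these ranks, so they do not set the 36 genes apart. The median change from d0 to d6 ran with these arrays: without Cl19 d6 replicate 3 it was −0.87 in Cl19, without 3c3 d6 replicate 1 it was −0.76 in 3c3, and without 3c3 d6 replicate 2 it was −0.23, where all probes had −0.21.

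The difference between the lines in the change from d0 to d6 was tested directly. It passed for 7 of the 36 genes: 6 with a higher change in 3c3 (16.7%, where 9.27% of all tested probes passed that way) and 1 with a lower one (2.8%, against 8.17%). The change in 3c3 minus that in Cl19 was 2.68 ± 0.49 for *Acss2* (limma adjusted p = 5.61e-04), 1.76 ± 0.37 for *Insig1* (limma adjusted p = 0.00216), 1.70 ± 0.47 for *Tm7sf2* (limma adjusted p = 0.0146), 0.96 ± 0.23 for *Srebf1* (limma adjusted p = 0.00545), 0.92 ± 0.20 for *Ebp* (limma adjusted p = 0.00297) and 0.68 ± 0.16 for *Scap* (limma adjusted p = 0.0044). For *Abcg1* it was −2.87 ± 0.52 (limma adjusted p = 5.69e-04), so that the exporter rose more in Cl19. Without the slide of 3c3 replicate 3, 4 passed with a higher and 1 with a lower change. On d0 the lines differed for 0 of 36 genes, where 1.08% of all probes were higher and 2% lower in 3c3. At an unadjusted p under 0.05 by limma 2 genes were higher and 1 lower, and the methods' t-test, named there for comparisons in general and not for the arrays, adjusted over all probes called 2. The lines were scanned on different days, so that scan day and line cannot be told apart in a level.

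**Figure D3:**
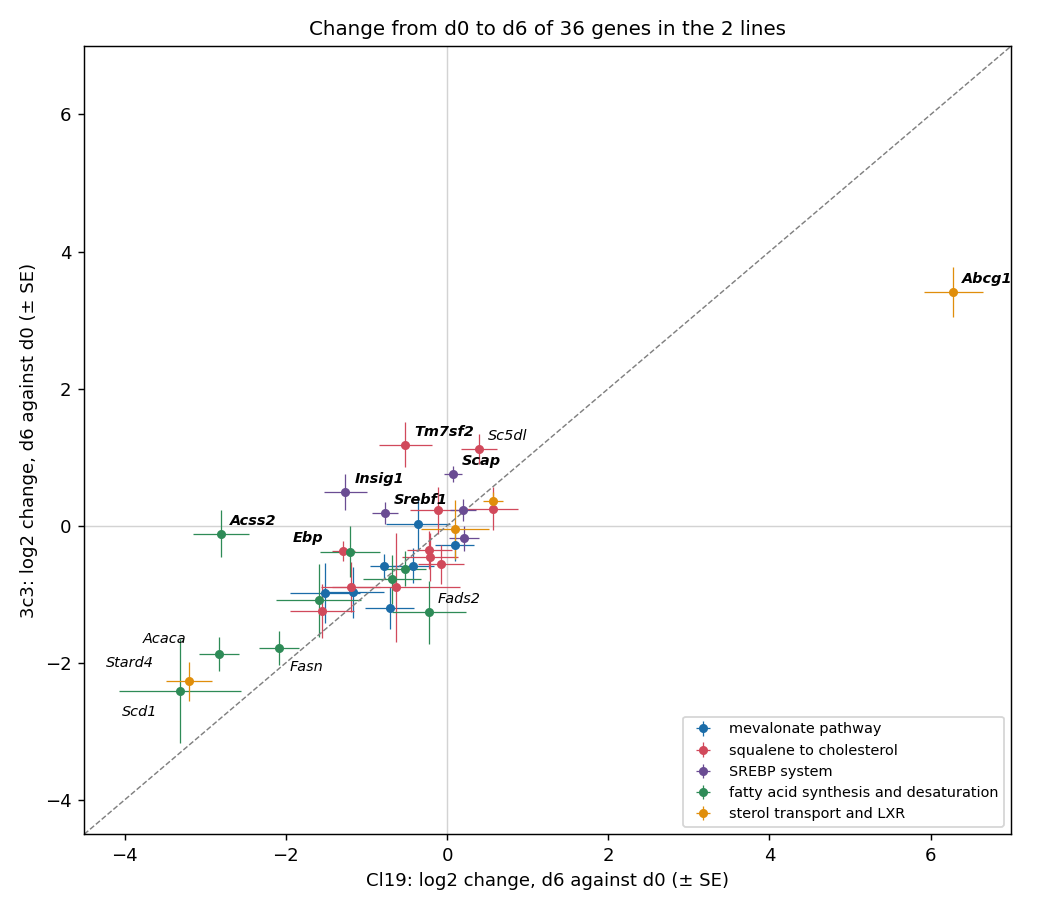
Log2 change from d0 to d6 in Cl19 (x axis) and in 3c3 (y axis) for the 36 genes, each point 1 gene coloured by role, with bars for the standard error and the line of equal change drawn. *Abcg1* lies at 6.28 and 3.41, *Acss2* at −2.80 and −0.12 and *Insig1* at −1.26 and 0.50, away from the line, while *Scd1*, *Stard4*, *Acaca* and *Fasn* lie at the lower left.

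Primary SMCs held most of the synthesis genes at higher levels than the cells of d6. After quantile normalization 20 of 36 genes were higher and 4 lower than in Cl19 d6 (55.6% and 11.1%, where 32.8% and 38.6% of all tested probes were), and 19 were higher and 5 lower than in 3c3 d6 (52.8% and 13.9%, against 33.4% and 38.1%). Against both lines 17 genes were higher: *Acaca*, *Acat2*, *Dhcr7*, *Ebp*, *Fads1*, *Fads2*, *Fasn*, *Hsd17b7*, *Lss*, *Mvd*, *Mvk*, *Nr1h2*, *Nsdhl*, *Pmvk*, *Scd1*, *Stard4* and *Tm7sf2*. The 4 lower against both were *Abca1*, *Abcg1*, *Elovl6* and *Insig2*. These directions depend on the scaling: on the authors' table as deposited 3 genes were higher and 15 lower than in Cl19 d6, and 3 higher and 20 lower than in 3c3 d6, where the median over all probes was −2.17 and −2.09. Relative to that median the 36 genes stood 1.59 and 1.33 higher, the same as with the 75th-percentile scaling, which gave 26 higher and 4 lower against Cl19 d6 and 23 higher and 4 lower against 3c3 d6.

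Among the genes that were higher in primary SMCs the largest differences were in the desaturases *Scd1* and *Fads2*. *Scd1* was at 11.45 and 11.43 on the primary SMC arrays, above every d6 array, or 20.6-fold higher than in Cl19 d6 and 22.6-fold higher than in 3c3 d6 (limma adjusted p = 1.33e-04 and 9.40e-05). *Fads2* was at 9.22 and 9.26, 12.7-fold and 19.1-fold higher, and *Tm7sf2* at 13.40 and 13.40, 10.3-fold and 4.67-fold higher. *Abcg1* was at 7.70 and 7.60, which is 19.9-fold lower than in Cl19 d6 and 5.64-fold lower than in 3c3 d6 but above every d0 array of both lines. *Insig2* was at 6.31 and 6.33, 4.77-fold and 3.98-fold lower, and *Elovl6* at 9.49 and 9.43, 3.79-fold and 4.32-fold lower. *Insig1* at 13.25 and 13.23 and *Acss2* at 7.89 and 7.93 were higher than in Cl19 d6 (2.85-fold and 5.67-fold) and differed from 3c3 d6 by 1.06-fold and 1.02-fold. *Elovl5* was not well above background in primary SMCs. The primary SMC arrays differed from each other by a median of 0.0259 over the 36 genes and 0.0685 over all probes, less than any other pair of replicates, and nothing states that they were separate RNA. Averaged as 1 array, which was chosen after seeing the data, they gave 23 and 21 genes called in place of 24 and 24. They were scanned apart from the lines, so that scan day and source cannot be told apart.

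**Figure D4:**
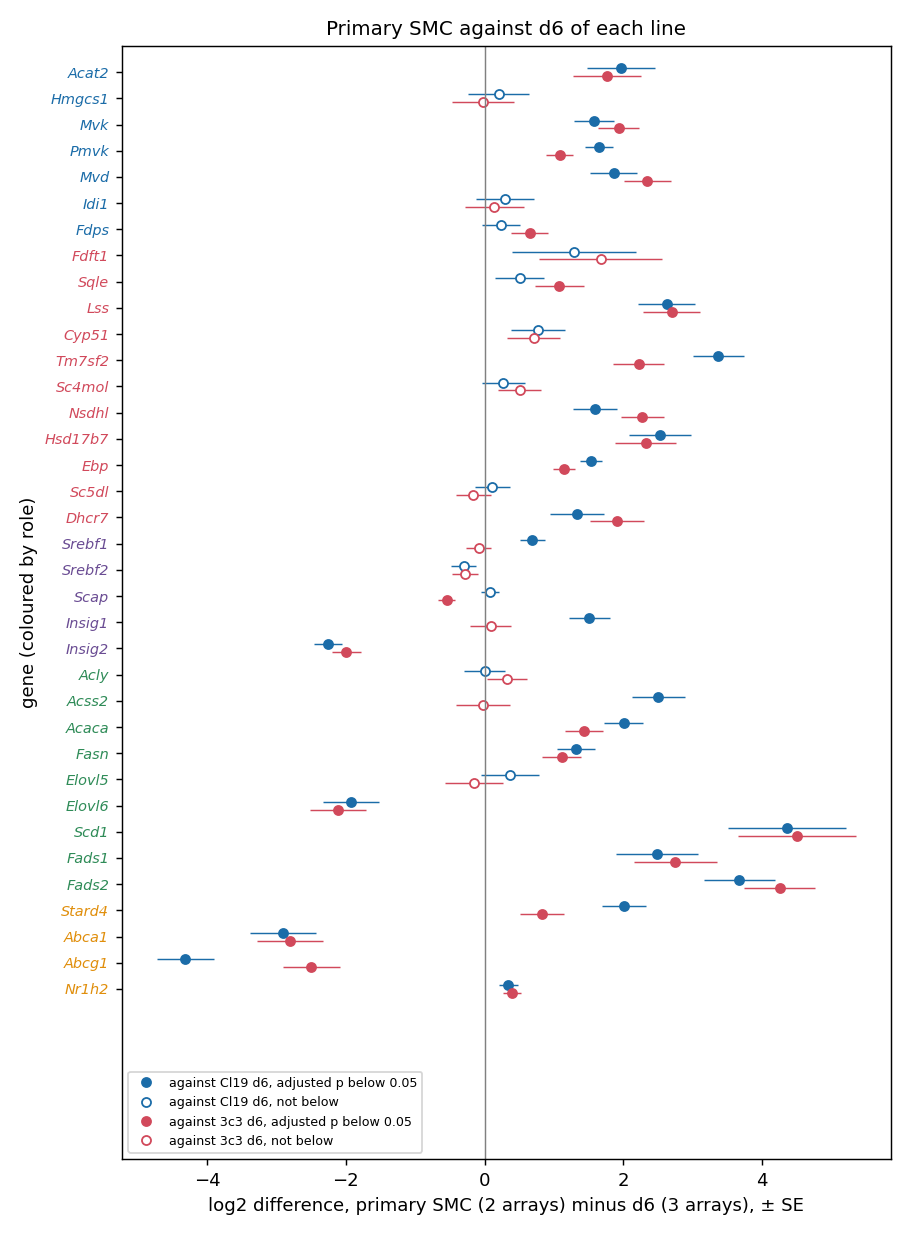
Log2 level in primary SMCs minus the mean level on d6 of Cl19 and of 3c3 for the 36 genes, after quantile normalization, with bars for the standard error and filled points for an adjusted p below 0.05. Most sterol and fatty acid genes lie to the right of 0, *Scd1* at 4.36 and 4.50, and *Abcg1*, *Abca1*, *Elovl6* and *Insig2* lie to the left.

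Other genes of the same pathways were counted from 4 lists, to be read against the 22% of all tested probes that rose and 30.3% that fell by d6 in Cl19, and the 19.7% and 28.6% in 3c3. Of 14 other sterol synthesis genes 12 had a probe and 9 were tested, and by d6 Cl19 had 1 higher and 4 lower and 3c3 had 3 higher and 2 lower.

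Of 13 genes of SREBP processing and sterol sensing 12 were tested, and Cl19 had 2 higher and 4 lower and 3c3 had 2 higher and 1 lower. *Mylip*, the liver X receptor target that marks the LDL receptor for breakdown, was not well above background on d0, and its d6 level in Cl19 was at least 13.3-fold higher. In 3c3, with 2 of 3 d6 arrays well above background, it was at least 1.37-fold higher (limma adjusted p = 4.88e-06 and 0.0018). The bound compares the bright group's mean with, on each array of the dim group, the lowest signal of any probe well above background or the gene's own signal where that was higher. Of 24 other genes of fatty acid and triglyceride synthesis 22 had a probe and 18 were tested, and Cl19 had 2 higher and 11 lower and 3c3 had 3 higher and 5 lower. *Elovl7*, an elongase of long saturated chains, was not well above background on d0, and its d6 level was at least 29.7-fold higher for Cl19. In 3c3 it was at least 2.38-fold higher, where 2 of 3 d6 arrays were well above background (limma adjusted p = 2.48e-07 and 0.00106). *Acsl6*, an acyl-CoA ligase, was not well above background on d6 and was at least 1.14-fold lower in Cl19, where 1 of 3 d0 arrays was well above background, and at least 1.66-fold lower in 3c3 (limma adjusted p = 0.0161 and 0.00527).

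Of 14 genes of sterol uptake and movement 13 had a probe and 11 were tested, and Cl19 had 3 higher and 4 lower and 3c3 had 3 higher and 1 lower. *Abca7*, a relative of ABCA1, went from 9.26, 8.75 and 9.003 on d0 to 11.87, 12.28 and 11.47 on d6 in Cl19 and from 9.42, 8.999 and 9.44 to 11.49, 11.59 and 11.39 in 3c3. It rose by a log2 of 2.87 and 2.20 (limma adjusted p = 1.44e-09 and 7.64e-08), with no overlap between the days. *Npc2*, which hands cholesterol on in the lysosome, rose by 1.38 and 1.61 (limma adjusted p = 1.39e-05 and 3.41e-06). Adipocyte genes, set here as a check of another lipid-making cell, gave 1 higher in Cl19 and 2 higher in 3c3 of the 2 tested, with *Adipoq* well above background on 1 array and *Fabp4* and *Lep* on 0 arrays. The summed log2 level of the 5 genes with a probe was in Cl19 4.23–4.51 on d0, 6.58–7.16 on d2 and 4.15–5.15 on d6. For 3c3 it was 2.83–3.14, 6.35–6.92 and 5.35–6.29. This sum was thus highest on d2, like many of the synthesis genes. Of the 2 genes tested, *Cidec* changed by a log2 of 2.96 in Cl19 and 5.51 in 3c3 on d2, and by −0.25 and 4.45 by d6. The other, *Cfd*, changed by 0.43 and 0.78 on d2 and by 1.53 and 1.74 by d6, so the sum's peak is not shared by both. The part of these genes in the course of the synthesis genes was not tested. Of the 3 genes of steroid-making cells tested, 0 passed in either direction in either line. Of 5 endothelial genes 2 fell in Cl19 and 1 in 3c3.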

How the data were processed

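RNA of Cl19 and 3c3 on d0, d2, d4 and d6 (3 arrays each) and of primary SMCs (2 arrays) was labeled and hybridized to 1-color Agilent rat arrays. The authors deposited scanner intensity values per feature, corrected for background by Agilent Feature Extraction 10.1.1.1 (submitters' processing notes), and a table of log2 values that equals the log2 of these intensities to within 5.2e-14, so it holds no normalization between arrays. The study's methods describe quantile normalization followed by averaging, which was done here over 43379 gene features of the 26 arrays before features of 1 probe were averaged. Features that the scanner marked as uneven or outlying were left out.

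Probes well above background on all arrays of at least 1 group (24442) entered 1 fit in limma (version 3.58.1, R version 4.3.3), with 1 coefficient per group (9 groups), Benjamini-Hochberg adjustment and a threshold of 0.05. The procedure was tested on simulated data. Tables and figures were made in Python 3.11.15. The 3 arrays per group limit the precision.

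The genes, lists and tests were chosen with earlier results of these data known. Values on each array were given for up to 3 genes per role with the largest d6 change among those passing over time in both lines, and for genes whose d6 change differed between the lines. From each list of other pathway genes at most 2 genes were named by the same measure. Some genes that this rule selects are not reported here. Replicate numbers of a line mark a shared slide per the file headers. Same-numbered arrays deviated together in 18 of 18 pairs of days in 3c3 (correlations over 0.1, lowest 0.204) and in 16 of 18 in Cl19 (lowest 0.0616), and the slide was used as a block in an alternative fit. The other alternatives were a 75th-percentile scaling, normexp correction (offset 50), the authors' table, other filters, the mean of all probes, a fit per line, the methods' t-test (named there for comparisons in general, while their array analysis used the area of time profiles), and leaving out arrays. Probe coordinates are those of the array on rn4 (2 probes unmapped), and promoters are from RefSeq on GRCr8, where 34 of the 36 genes were matched by accession and the others by symbol.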

Additional observations from a re-analysis of the deposited data

Results flagged for a closer look

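The change from d0 to d6 differed between the lines, by the direct test of the difference, for 7 of the 36 genes. In log2 units and as the 3c3 change minus the Cl19 change, the differences were 2.68 for *Acss2*, 1.76 for *Insig1*, 1.70 for *Tm7sf2*, 0.96 for *Srebf1*, 0.92 for *Ebp*, 0.68 for *Scap* and −2.87 for *Abcg1*. *Acss2*, *Insig1* and *Srebf1* fell in Cl19 and did not pass in 3c3, *Tm7sf2* and *Scap* rose in 3c3 and did not pass in Cl19, *Ebp* fell in both lines and more in Cl19, and *Abcg1* rose in both and more in Cl19. The second brightest *Insig1* probe did pass as higher in 3c3 (log2 0.76, limma adjusted p = 0.0343). A dimmer *Srebf1* probe passed in neither line (log2 −1.26 in Cl19 and −0.34 in 3c3). Each line is 1 clone measured on its own slides. Each of these slides held d0 and d6, so a shift common to a slide drops out of the change between them. An effect of a slide that differs between days cannot be told apart from the clone in these differences.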

How the results depend on the processing

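No called change by d6 turned its direction under the alternatives. The split of the primary SMC comparison did turn on the authors' table (3 higher and 15 lower, 3 higher and 20 lower), and some d6 changes that did not pass changed sign with the 75th-percentile scaling, such as *Scap* in Cl19 (0.07 to −0.29). With the slide as a replicate block, 14 genes instead of 6 were called on d2 in 3c3, and the block, random for levels between the lines or against primary SMCs, changed no other count by over 1.5 times. With the 75th-percentile scaling 1 gene was higher on d6 in Cl19 and 17 lower in 3c3. With normexp correction 11 were called on d2 in 3c3 and 1 between the lines on d0, and with the filter for probes well above background on all arrays 1 was called between the lines on d0. The deposited table gave 4 higher on d6 in Cl19, 7 lower on d6 in 3c3 and 14 called on d2 in 3c3. A fit per line called 4 on d2 in Cl19. The methods' t-test, named there for comparisons in general and not for the arrays, called 7 lower on d6 in Cl19 and 3 in 3c3, 17 on d2 in 3c3, 3 from d2 to d6 in each line, 2 between the lines on d0 and 11 for primary SMCs against 3c3 d6. Without the slide of 3c3 replicate 3 the 3c3 counts were 12 over time, 4 lower on d6, 2 on d2 and 12 from d2 to d6.

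Leaving out 1 array of the groups compared at a time gave 21 to 30 genes over time in Cl19 and 21 to 32 in 3c3, 12 to 19 lower on d6 in Cl19 and 4 to 18 in 3c3, 2 to 4 higher on d6 in Cl19 and 4 to 5 in 3c3, 5 to 9 on d2 in Cl19 and 4 to 7 in 3c3, 15 to 29 from d2 to d6 in Cl19 and 13 to 28 in 3c3, 7 to 10 between the lines on d6 and 0 to 0 on d0, and 23 to 25 for primary SMCs against Cl19 and 21 to 25 against 3c3. The median d6 change ran from −0.87 to −0.38 in Cl19 and from −0.76 to −0.23 in 3c3. Of the 72 single d6 changes, 59 stayed on their side of the threshold with the 75th-percentile scaling, 62 on the authors' table, 66 with the block, 68 with the mean of all probes, 69 in a fit per line and 70 with normexp or no filter. Arrays of other groups also move the shared spread: without Cl19 d6 replicate 3, 8 genes rose and 4 fell on d2 in Cl19 and 9 rose and 2 fell in 3c3, without 3c3 d6 replicate 2, 10 rose and 1 fell on d2 in 3c3, and without 3c3 d6 replicate 1, 9 rose and 1 fell on d2 in 3c3 and 1 gene was lower in 3c3 on d0. Where 1 array is left out its group rests on 2 arrays. The dim probes of *Fdft1* and *Elovl5* limit what can be said of them.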
